A study of Mus musculus with 6 samples.

Results

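In an atlas of 74686 open chromatin regions of CD8 T cells from tumors, 2120 regions set replicate 2 of the group with SMARTA CD4 T cells apart from replicates 1 and 3 of the same group. Replicate 2 was more accessible than both in 237 of them, here called the higher regions, and less accessible than both in 1883, the lower regions. Accessibility is given throughout as log2(CPM + 1), called the level, where CPM is the count of a region scaled to the total of its library, at 1000000 counts each. A region was chosen when the mean raw count of the 3 libraries of the group was 50 or more, when replicate 2 differed from replicate 1 and from replicate 3 by 0.8 or more in the same direction, and when replicates 1 and 3 differed by less than 0.5. Of the 50120 regions with that mean count, 0.473% were higher and 3.76% were lower regions. The smaller of the 2 differences of replicate 2 from replicates 1 and 3 is called the gap, negative where replicate 2 was lower. The regions were chosen by the levels of these 3 libraries, so their differences are a description and carry no test. Levels are listed below in the order of replicates 1, 2 and 3 of a group, and positions are those of the deposited table (GRCm38).

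The cells were OT1 CD8 T cells, whose transgenic T cell receptor recognises a peptide of ovalbumin, sorted on CD8 and the congenic marker CD45.1. They came from tumors of B16-OVA-GP61, a melanoma line of mice with ovalbumin and the epitope GP61. The group without SMARTA cells and the group with them held 3 libraries each. SMARTA cells are CD4 T cells with a transgenic receptor for GP61, and they are the help whose presence separates the groups. Sorted cells of both groups were frozen in DMSO and thawed for ATAC-seq, which reads open chromatin from the places where a transposase could cut and tag the DNA. The sources used here do not give mouse strain, age, day of sorting or whether tumors were pooled. Nothing in the labels says that replicates came from separate animals, so the spread between them may be technical.

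T cells that meet tumor antigen for a long time can enter a state called exhaustion, marked by inhibitory receptors such as PD-1, CTLA-4 and TIM-3. A smaller progenitor pool keeps the transcription factor TCF-1, the product of Tcf7, and genes of naive and memory cells. Open regions far from gene starts are often enhancers, whose accessibility differs between cell states more than that of promoters. AP-1 factors, which act downstream of the T cell receptor, and RUNX factors bind many such regions in T cells.

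Of the regions that overlapped a promoter window, the 3 printed here show the range of promoter types at both signs of the gap. Each sequence is the 250 bases before the RefSeq gene start (GRCm38.p6), 5′ to 3′ on the strand of the gene. Capitals mark every match to the letters searched on both strands, which for these promoters were TGANTCA (AP-1), TGTGGT (RUNX), CCGGAAG (ETS) and GGGCGG (SP/KLF), and the kappa B motif, which binds NF-kappa B.
Pparg at chr6:115360894-115361143, plus strand: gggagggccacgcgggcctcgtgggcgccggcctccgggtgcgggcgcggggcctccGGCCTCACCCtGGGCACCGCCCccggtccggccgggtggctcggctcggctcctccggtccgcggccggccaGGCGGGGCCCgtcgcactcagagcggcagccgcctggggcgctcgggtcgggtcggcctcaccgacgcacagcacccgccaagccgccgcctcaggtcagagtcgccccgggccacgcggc
Dscam at chr16:97170736-97170985, minus strand: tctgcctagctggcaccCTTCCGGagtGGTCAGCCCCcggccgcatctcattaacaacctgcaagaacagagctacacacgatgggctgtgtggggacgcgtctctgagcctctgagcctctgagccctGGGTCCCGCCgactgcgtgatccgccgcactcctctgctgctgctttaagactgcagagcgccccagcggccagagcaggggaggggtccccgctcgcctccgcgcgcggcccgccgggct
Havcr2 at chr11:46454681-46454930, plus strand: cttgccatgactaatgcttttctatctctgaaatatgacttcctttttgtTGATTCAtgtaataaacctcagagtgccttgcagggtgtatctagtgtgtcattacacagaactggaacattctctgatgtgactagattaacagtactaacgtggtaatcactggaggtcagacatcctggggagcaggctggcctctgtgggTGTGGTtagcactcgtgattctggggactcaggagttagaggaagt

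The promoter of Pparg, the nuclear receptor of lipid metabolism, overlapped a higher region and was 82.4% G and C, with kappa B and SP/KLF letters. That of Dscam, a cell adhesion molecule known from neurons, overlapped a lower region and was 68.0% G and C, with ETS and kappa B letters. The promoter of Havcr2, which encodes the inhibitory receptor TIM-3, overlapped a lower region, was 44.8% G and C and held 1 AP-1 and 1 RUNX match. A match is a description of the letters and not of a bound factor. AP-1 letters recurred upstream of other genes whose starts lay at lower regions, and 5 such stretches are shown with the AP-1 letters in capitals, again 5′ to 3′ on the strand of the gene.
Rdh1 at chr10:127759589-127759635, plus strand: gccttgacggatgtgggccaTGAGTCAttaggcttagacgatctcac
Ksr1 at chr11:79060040-79060086, minus strand: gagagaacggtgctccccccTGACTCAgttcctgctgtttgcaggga
Cd68 at chr11:69666293-69666339, minus strand: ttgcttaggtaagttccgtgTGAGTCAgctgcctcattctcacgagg
Tnfrsf8 at chr4:145315270-145315316, minus strand: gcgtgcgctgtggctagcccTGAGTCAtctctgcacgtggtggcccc
Dclk1 at chr3:55461649-55461695, plus strand: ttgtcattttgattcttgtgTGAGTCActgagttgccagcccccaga

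These lower regions were open in all 3 libraries without SMARTA. At Cd68, known as a macrophage marker, the levels were 4.30, 4.79 and 4.73 without SMARTA and 4.17, 3.05 and 4.12 with it. At Ksr1, which encodes a scaffold of the MAP kinase cascade, they were 4.24, 4.09 and 4.47 and then 4.05, 2.98 and 3.93. At Tnfrsf8, the gene of the receptor CD30, they were 3.31, 3.59 and 3.67 and then 3.83, 2.95 and 3.86. At all 3, replicate 2 with SMARTA was the lowest of the 6 libraries.

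The AP-1 letters stood in the 250 upstream bases of 15 of the 52 promoters at lower regions (28.8%). They were found in 4.37% of the 8841 promoters at regions with the mean count of 50 or more, and in 6.75% of all 32851 promoters of the same length. In 13 of the 15 promoters the letters lay inside the lower region itself, and in 2 (Tnfrsf9 and Gm35218) they lay in the promoter window but outside it. RUNX letters were present in 26.9% of the promoters at lower regions, against 11.6% of those at regions with the mean count. Conversely, SP/KLF letters were less frequent, at 25% against 62.3%, and so were ETS letters, at 1.92% against 14.3%. Kappa B letters, common in all promoters (45.8%), stood in 40.4% against 63.8%. The promoters at lower regions also held less G and C, with a median of 49.2% against 60.8%. Among promoters under 50% G and C, AP-1 letters stood in 8 of 29 at lower regions (27.6%) and in 8.90% of those at regions with the mean count. Among the richer promoters the shares were 30.4% (7 of 23) and 3.69%. At the 14 promoters of higher regions, AP-1 letters were found in 1, RUNX letters in 4 and ETS letters in 0. No test was run on these shares, and 14 or 52 promoters are a small part of 2120 regions, whose own sequence was not used here.

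The libraries held 16595779 to 27182809 counts in the atlas. Replicate 2 with SMARTA had the fewest counts, the fewest peaks in its own list (65020, against 73012 to 82089 in the other libraries) and the smallest share of atlas regions under such a peak (69.5%, against 80.5% to 90.7%). Across all regions its levels correlated at r = 0.959 with replicate 1 and at r = 0.967 with replicate 3, which correlated at r = 0.984 with each other. Regions within a library are not independent replicates, so these r values are descriptions. No pair of libraries agreed within sampling noise (lowest chi-square per degree of freedom 2.76). Whether depth or library quality had a part in the differences of replicate 2 was not tested.

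In the 237 higher regions the median level was 3.05 in replicate 2 with SMARTA and 1.97 and 1.98 in replicates 1 and 3. The 3 libraries without SMARTA had medians of 1.95, 1.96 and 2.12, close to replicates 1 and 3. In the 1883 lower regions the median was 2.19 in replicate 2, 3.44 and 3.36 in replicates 1 and 3, and 3.62, 3.65 and 3.60 without SMARTA. Over all regions with the mean count, the 6 medians spanned 3.00 to 3.25, with replicate 2 with SMARTA at the lower end. The median gap was 0.95 in the higher and -0.998 in the lower regions, and the extremes were 1.71 and -2.49. Replicate 2 held 69 to 964 counts in the higher regions and 11 to 596 in the lower ones. At the median count, counting error alone gives the log2 of a replicate 2 count an SD of 0.131 in the higher and 0.188 in the lower regions. The SD of the level is smaller, because 1 is added to the CPM. In 59 higher regions the mean count of replicates 1 and 3 was below 50, so these passed the count minimum through replicate 2.

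**Figure D1:**
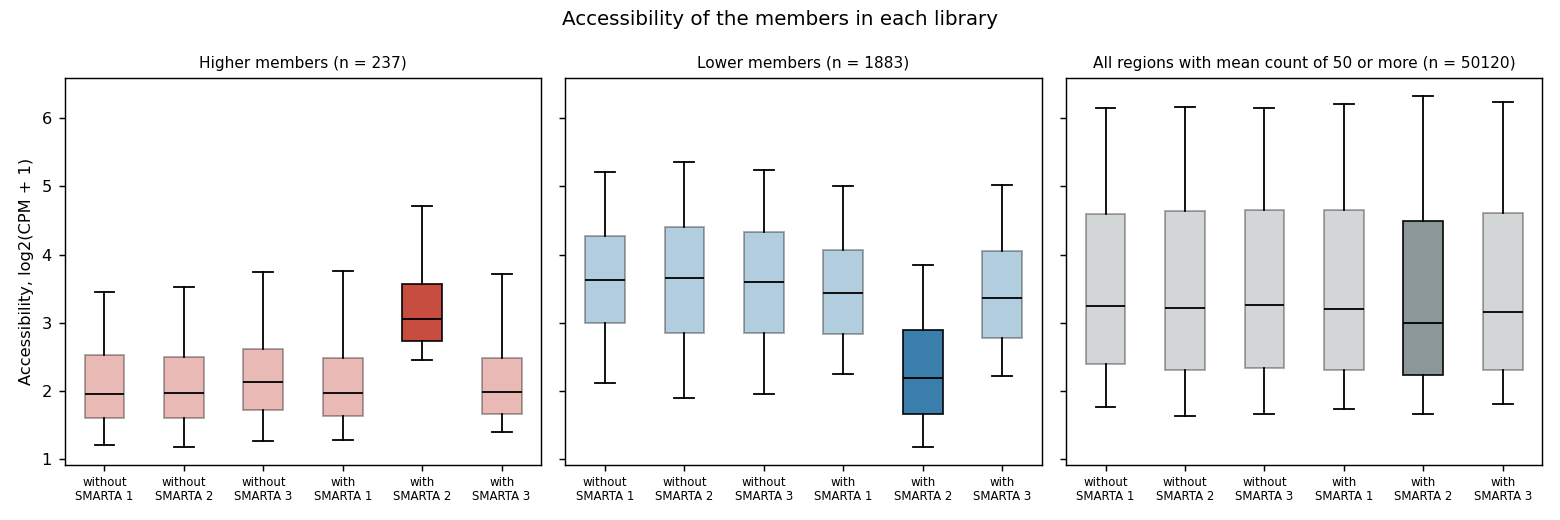
Levels (log2(CPM + 1)) of the higher regions, the lower regions and all regions with a mean count of 50 or more in each of the 6 libraries. Boxes span the quartiles, lines mark medians and whiskers the 5th and 95th percentiles; replicate 2 with SMARTA is drawn dark, with medians of 3.05, 2.19 and 3.00.

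The same rule was applied with each other library in the place of replicate 2, against the mates of its own group. It chose 136 higher (0.271%) and 32 lower regions (0.0638%) for replicate 1 with SMARTA, and 77 higher (0.154%) and 25 lower (0.0499%) for replicate 3. In the group without SMARTA, 56995 regions had the mean count. There replicate 1 gave 439 higher (0.77%) and 242 lower regions (0.425%), while replicate 2 gave 24 (0.0421%) and 37 (0.0649%) and replicate 3 gave 6 (0.0105%) and 29 (0.0509%). Replicate 2 with SMARTA thus had the most lower regions, and replicate 1 without SMARTA had more higher ones. Of the 439 higher regions of replicate 1 without SMARTA, 1 was higher and 29 were lower in replicate 2 with SMARTA. Of its 242 lower regions, 4 were higher and 10 were lower there. The shares for replicate 2 with SMARTA over all regions with its mean count were 0.473% higher and 3.76% lower. No test was run on these overlaps, and nothing is read from them.

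The higher regions were mostly of low accessibility and the lower regions of middle accessibility. When the 50120 regions were split into 5 equal classes by their mean level without SMARTA, the higher regions numbered 148, 50, 29, 10 and 0 from the lowest class to the highest. The lower regions numbered 134, 297, 572, 712 and 168. Replicate 2 as a whole followed a curve over the same classes, with a median difference from the mean of replicates 1 and 3 of 0.10, -0.02, -0.19, -0.18 and 0.07. A cyclic loess scaling, which removes such a curve, left 1324 of the 1883 lower regions (70.3%) and 211 of the 237 higher ones in their sets.

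**Figure D2:**
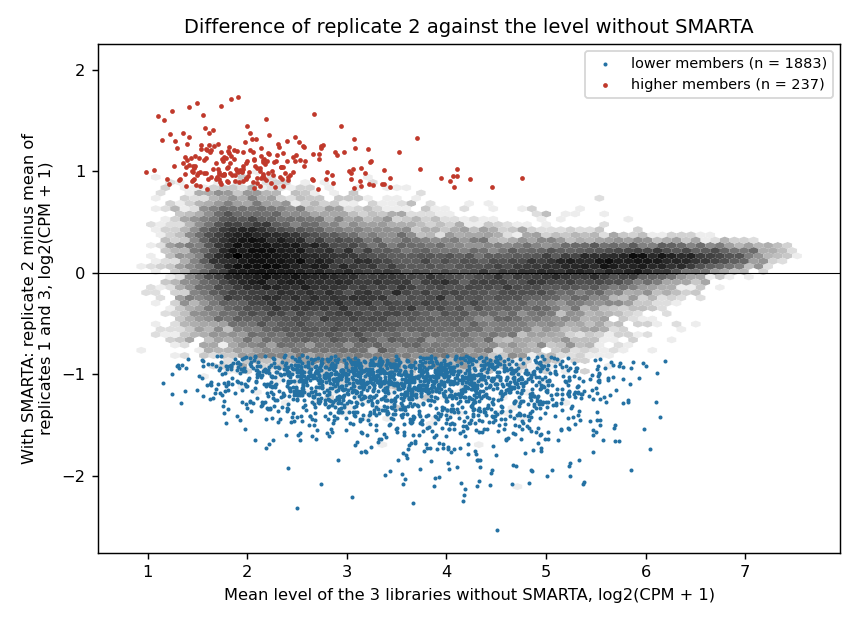
Difference of replicate 2 with SMARTA from the mean of replicates 1 and 3 (log2(CPM + 1)) against the mean level of the 3 libraries without SMARTA, for higher regions (red), lower regions (blue) and, in grey shades, all regions with a mean count of 50 or more. The higher regions lie mostly at low levels, 148 of 237 in the lowest of 5 classes, and the lower regions in the middle, 712 of 1883 in the class below the highest.

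Both sets lay at gene boundaries and promoters less often than all regions with the mean count. Regions were not matched for level in this comparison. A promoter window, which runs from 250 bases before to 50 after a gene start, overlapped 14 higher regions (5.91%) and 52 lower regions (2.76%), against 17.7% of all regions with the mean count. Within 2 kb of a boundary of a protein-coding gene lay 13.1% of the higher and 10.3% of the lower regions, against 29.9%. Deeper inside genes lay 48.5% and 49.9%, against 40.0%. The remainder lay between genes, with 6.75% and 5.26% over 100 kb from any protein-coding gene. Another higher region lay within 10 kb of 11% of the higher regions, and another lower region that near to 23.6% of the lower ones. Over all regions with the mean count, 71.2% had another such region within 10 kb. The sets differ in size, on which these shares depend, so they are not compared. Peaks of the separate list of replicate 2 overlapped all 237 higher regions and 65.5% of the lower ones, against 89.7% of all regions with the mean count. The library that gave these peaks also chose the regions, so nothing is read from these shares. In the lists without SMARTA, peaks overlapped 66.7% to 92.4% of the higher regions and 94.8% to 96.3% of the lower, against 92.7% to 96.4% of all.

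The libraries without SMARTA took no part in the choice, but replicates 1 and 3, against which they are set here, did. The mean without SMARTA was within 0.5 of the mean of replicates 1 and 3 in 180 higher regions (75.9%) and 1158 lower regions (61.5%). Both shares were below the 85.0% of all regions with the mean count. In the higher regions it was above by 0.5 or more in 24 and below in 33. In the lower regions it was above by 0.5 or more in 483 (25.7%, against 7.83% of all) and below in 242 (12.9%, against 7.21%). The median difference of the group without SMARTA from replicates 1 and 3 was -0.03 in the higher and 0.11 in the lower regions, and -0.03 over all. All 3 libraries without SMARTA lay below replicate 2 in 233 of the 237 higher regions (98.3%, against 41.2% of all with the mean count). They lay above replicate 2 in 1790 of the 1883 lower ones (95.1%, against 35.9%). These counts use the replicate 2 values that the rule chose, so nothing is read from them. The spread between the libraries without SMARTA was itself larger in these regions, with a median SD of 0.229 in the higher and 0.202 in the lower, against 0.130 over all. The sets were not matched for level, on which the spread also depends. Replicate 2 without SMARTA lay above both of its mates in 780 lower regions (41.4%, against 29.5% of all) and in 47 higher regions (19.8%). For replicate 3 without SMARTA the shares were 21.2% in the lower and 50.6% in the higher regions, against 31.4% of all. For replicate 1 without SMARTA they were 37.4% and 29.5%, against 39.1%. A lean was thus not particular to the library of the same number.

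**Figure D3:**
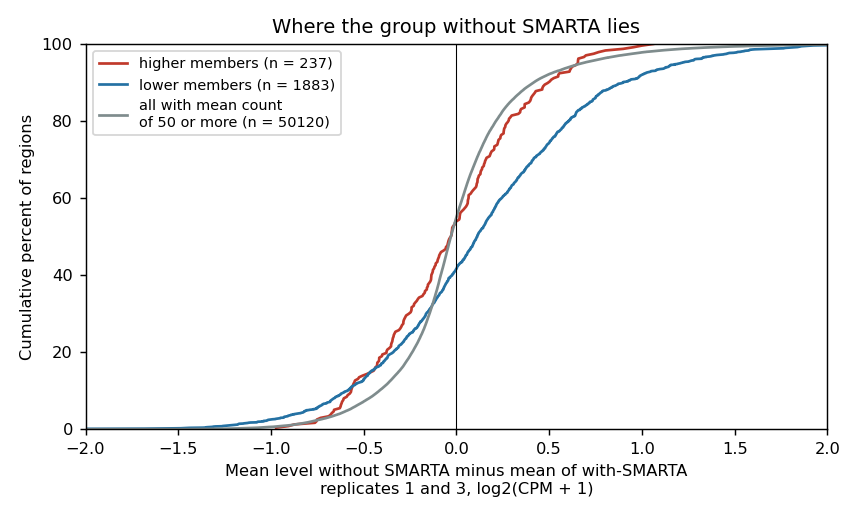
Cumulative percent of regions against the mean level without SMARTA minus the mean level of replicates 1 and 3 with SMARTA (log2(CPM + 1)), for the higher regions, the lower regions and all regions with a mean count of 50 or more. The curve of the lower regions lies to the right above 0, where 25.7% reach 0.5 or more, against 7.83% of all.

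Across the whole atlas, edgeR called 4.68% of regions opened and 10.4% closed with SMARTA at an adjusted p of 0.05. In regions with the mean count the shares were 6.77% and 5.71%. Among the higher regions 38 were called opened and 0 closed, and among the lower regions 26 were opened and 274 closed. The libraries that chose the regions enter this fit, so nothing is read from these counts. Without replicate 2 with SMARTA, edgeR called 21 higher regions opened and 15 closed, and 228 lower regions opened and 385 closed. The shares over regions with the mean count were then 8.27% opened and 5.67% closed, and over the atlas 5.7% and 11.3%, or 17% in both directions. Replicates 1 and 3, which the rule also used, remain in that fit, so nothing is read from these counts either.

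The higher regions were assigned to 197 protein-coding genes, by overlap or as the nearest within 100 kb, which does not show the gene they regulate. Atp6v0d2, which encodes a subunit of the vacuolar proton pump used by osteoclasts and macrophages, held the most, 5 of its 10 regions with the mean count. They lay outside the gene within chr4:19925155-19950770. The one at chr4:19926932-19927332 had the highest level, with 2.76, 3.30 and 3.35 without SMARTA and 3.68, 4.55 and 3.70 with it. Replicate 2 with SMARTA was the highest library, and replicates 1 and 3 with SMARTA also lay above the other group there. Tet3, which encodes an enzyme of DNA demethylation, held 3 higher regions of 13, all inside the gene. Pparg held 2 of 5. At chr6:115432445-115432845, inside Pparg, the levels were 1.74, 1.27 and 1.66 without SMARTA and 1.74, 3.29 and 1.75 with it, so that 5 libraries lay together and replicate 2 alone was high. Its promoter, at chr6:115360945-115361345, was at 3.30, 2.07 and 2.66 and at 2.94, 4.27 and 2.48, a wider spread in both groups. Cerkl held 2 of 4 and Ccdc180 2 of 2.

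The 10 largest gaps upward were at regions with 255 counts or fewer in replicate 2. The largest, 1.71, was inside Ccdc180 at chr4:45949194-45949594, with levels of 1.83, 1.73 and 2.15 without SMARTA and 1.31, 3.02 and 1.26 with it, from 30, 118 and 38 counts. Ehmt1, a histone methyltransferase gene, followed with 1.60, 2.29 and 1.62 and with 1.37, 3.14 and 1.49. The regions at Ccdc180 and Ehmt1 passed the count minimum through replicate 2. Acod1, whose enzyme makes itaconate in activated macrophages, had a region 29.8 kb away at chr14:103017027-103017427 with 1.50, 1.73 and 1.96 and with 2.25, 4.03 and 2.53. Replicate 2 held the 255 counts there. Igf2r, the receptor that carries lysosomal enzymes, had levels of 2.89, 3.19 and 2.73 and of 2.34, 3.74 and 2.25. At Igf2r the group without SMARTA lay between replicate 2 and its mates, as also at Ehmt1. The other 6 were at 2200002D01Rik, Paxbp1, Lhx3, Ythdc1 and Pparg and at chr6:143361355-143361755, which has no protein-coding gene within 100 kb, with gaps of 1.43 to 1.55. Gm21814 and D930028M14Rik, the other promoters with the largest upward gaps, had gaps of 1.07 and 1.04.

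The lower regions were assigned to 1266 genes, of which 49 held 4 or more and 20 held 5 or more. None of these 49 genes held a higher region, while 28 genes held regions of both signs. Higher regions were only 0.473% of the regions with the mean count, so nothing is read from their absence. Dscam led the genes with most lower regions: 9 of its 12 regions with the mean count were lower, with gaps of -1.47 to -2.49, and in all 12 replicate 2 was below both mates. These 9 lay within chr16:96906532-97207192, and 6 lay inside the gene. At chr16:96907795-96908195 the levels were 4.55, 4.87 and 4.12 without SMARTA and 5.02, 2.45 and 4.93 with it, from 634, 74 and 804 counts. At chr16:97016498-97016898 they were 3.30, 3.06 and 2.78 and then 3.81, 1.52 and 3.63. Around the Dscam promoter printed above, the region at chr16:97170432-97170832 was at 3.80, 3.32 and 3.03 and at 3.61, 1.39 and 3.15. In all 9 regions each library without SMARTA lay above replicate 2.

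Runx2 and Atxn1 also held 9 lower regions each, of 42 and 51. Runx2 encodes a RUNX transcription factor known from bone formation, and 8 of its 9 lay inside the gene. The strongest, at chr17:44608559-44609311, was at 4.71, 4.98 and 5.07 without SMARTA and at 4.84, 3.20 and 4.91 with it. In all 9 Runx2 regions the mean without SMARTA was within 0.5 of replicates 1 and 3, and every library without SMARTA lay above replicate 2. Atxn1, the gene of ataxin-1, had its widest gap at chr13:45867338-45867738, with 3.61, 4.21 and 4.04 and with 4.0, 2.66 and 4.37. Hivep3, which encodes a zinc finger protein that binds kappa B sites, held 6 of 24, and Ptpn5, which encodes a tyrosine phosphatase, held 6 of 12. At chr4:119921172-119921572 in Hivep3 the levels were 4.56, 5.00 and 4.99 and then 4.19, 2.19 and 4.07. With cyclic loess scaling the lower regions numbered 9 at Dscam, 8 at Runx2, 6 at Atxn1, 5 at Hivep3 and 3 at Ptpn5.

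Besides the pair at Dscam, the 10 largest gaps downward were at Erv3, Minar1, Lrrk1, Gse1, Pdgfb, Gldc, Hopx and Actbl2, with gaps of -2.01 to -2.22. Hopx encodes a small homeodomain protein expressed in differentiated effector T cells. Its region, 15.4 kb outside the gene at chr5:77130317-77130717, was at 4.74, 3.85 and 3.94 without SMARTA and at 4.24, 1.89 and 3.92 with it. Pdgfb, the gene of a growth factor chain, had a region at chr15:80024416-80024816, at its boundary, with 4.55, 4.34 and 4.42 and with 4.50, 2.38 and 4.44. There 5 libraries lay within a narrow range and replicate 2 with SMARTA lay far below. At Erv3 and Actbl2 the group without SMARTA did not match replicates 1 and 3. Erv3, an endogenous retroviral gene, was at 2.75, 2.30 and 2.43 and at 3.51, 1.29 and 3.71, while Actbl2, which encodes an actin-like protein, was at 4.41, 4.41 and 4.11 and at 3.08, 0.88 and 2.89. Gm51494, whose promoter had a gap of -1.55, was at 3.88, 4.44 and 3.81 and at 3.58, 1.61 and 3.16.

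Among the gene lists, inhibitory receptors had the highest share of lower regions. Of the 99 regions of this list with the mean count, 20 were lower (20.2%, against 3.76% of all) and 0 were higher. The median difference of replicate 2 from the mean of replicates 1 and 3 was -0.30 over the list and -0.02 over all. The lower regions were at Ctla4 (6 of 14), Havcr2 (5 of 7), Entpd1 (4 of 15), Pdcd1 (3 of 11), Tigit (1) and Vsir (1). At chr1:60913322-60913722, inside Ctla4, which encodes the receptor CTLA-4, the levels were 5.29, 5.34 and 5.26 without SMARTA and 5.15, 3.64 and 5.11 with it. The Havcr2 region at the promoter printed above, chr11:46454660-46455060, was at 4.83, 5.01 and 4.71 and at 4.84, 3.27 and 4.81. At both, replicate 2 alone was low and the other 5 libraries differed little. In all 5 Havcr2 regions the mean without SMARTA was within 0.5 of replicates 1 and 3.

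Pdcd1, the gene of PD-1, showed another order. In each of its 3 lower regions the group without SMARTA was above replicates 1 and 3 by 0.75 to 1.52, and replicate 2 lay further below. At chr1:94074697-94075097, 22.3 kb outside the gene, the levels were 6.18, 5.56 and 5.35 without SMARTA and 4.15, 2.68 and 4.20 with it. At the Pdcd1 promoter, chr1:94052386-94052786, they were 6.08, 5.35 and 5.17 and then 5.01, 3.73 and 4.56. The groups did not overlap at either region, with or without replicate 2. Entpd1, which encodes the ectonucleotidase CD39, held both orders, the mean without SMARTA minus that of replicates 1 and 3 running from -0.66 to 1.58. With cyclic loess scaling the list had 18 lower regions, with 6 at Havcr2 and 1 at Pdcd1.

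Cytokine receptors and signalling genes had 22 of 222 regions lower (9.91%) and 1 higher. Stat4 and Stat3, whose products carry cytokine signals to the nucleus, held 4 and 3. At chr11:100934062-100934462 in Stat3 the levels were 5.58, 5.15 and 5.27 without SMARTA and 4.05, 2.40 and 4.42 with it, so the groups were apart and replicate 2 lay lowest. At chr1:52052899-52053299 in Stat4 they were 3.77, 3.83 and 3.91 and then 3.27, 1.43 and 3.03. Near Tgfbr2, which encodes a receptor of TGF-beta, the region at chr9:116184934-116185334 was at 3.39, 3.17 and 3.39 and at 3.96, 2.37 and 4.04, with the group without SMARTA between replicate 2 and its mates. Of the others, Cish and Il18rap held 3 each, Il2ra, Il10ra, Stat5b and Tgfbr2 2 each, and Il18r1 1.

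Exhaustion transcription factors had 18 of 194 regions lower (9.28%) and 1 higher, with 4 each at Prdm1, the gene of BLIMP-1, and Eomes. The count was 10 with cyclic loess scaling. Ikzf2, which encodes Helios, held 3, and at chr1:69544203-69544603 its levels were 5.00, 4.88 and 4.98 without SMARTA and 4.28, 2.33 and 3.88 with it. Rbpj, the effector of Notch signals, held 1 region of each sign. The higher one at chr5:53532135-53532535 was at 1.77, 1.10 and 1.32 and at 1.97, 3.07 and 1.95. Costimulatory receptors and ligands had 8 of 97 lower (8.25%), 3 each at Tnfrsf9, which encodes the receptor CD137, and Tnfsf8. At the latter the mean without SMARTA was 0.98 to 1.02 above replicates 1 and 3 in all 3.

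Several lists lay nearer to the share of all regions. T cell receptor and CD8 lineage genes had 8 of 142 lower (5.63%), factors induced by the T cell receptor 9 of 155 (5.81%), effector differentiation genes 9 of 153 (5.88%) and cytotoxic molecules 5 of 107 (4.67%). With cyclic loess scaling these 4 counts were 2, 1, 7 and 3, and the share of all regions was 2.76%. Cell cycle genes had 6 of 106 lower, 5 of them at Cdk6, and 2 with cyclic loess. Chemokine receptor and migration genes had 6 of 145 lower. Interferon-stimulated genes had 0 of 32 in either direction.

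**Figure D4:**
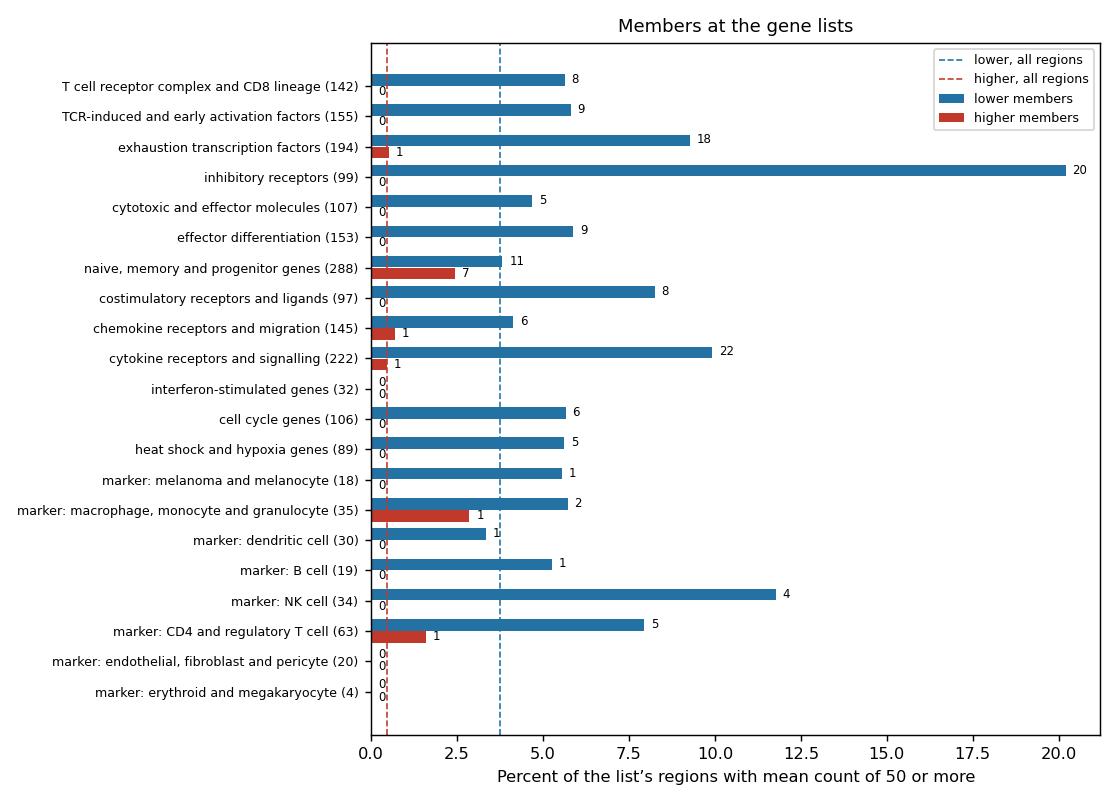
Percent of the regions of each gene list (with a mean count of 50 or more, number in parentheses) that were lower (blue) or higher (red) regions, with counts beside the bars. Dashed lines mark the shares over all regions, 3.76% and 0.473%; inhibitory receptors reach 20.2% lower, and naive, memory and progenitor genes 2.43% higher.

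Over the 288 regions of naive, memory and progenitor genes, replicate 2 lay below both mates in 155 and above both in 79. Over all 50120 regions the counts were 21228 and 18269. The median difference of replicate 2 from the mean of its mates was -0.13 over the list and -0.02 over all. This list nevertheless held 7 of the higher regions (2.43%, against 0.473% of all). Among them were 2 at Tcf7, 2 at Satb1 and 1 each at Il7r and S1pr1. Inside Tcf7, at chr11:52275391-52275791, the levels were 3.70, 4.05 and 4.44 without SMARTA and 4.92, 5.88 and 4.96 with it. At chr11:52268415-52268815, also in Tcf7, they were 4.01, 3.98 and 4.32 and then 4.37, 5.30 and 4.32. These were among the most accessible higher regions, and the first held 964 counts in replicate 2. At the first, all libraries with SMARTA lay above all those without it. Near Il7r, the gene of the interleukin 7 receptor, the region at chr15:9502982-9503763 was at 2.23, 1.42 and 1.22 and at 2.11, 3.44 and 2.38. At chr3:115704632-115705032, near S1pr1, which encodes the receptor for exit from tissue, it was at 1.77, 1.91 and 2.20 and at 2.14, 3.28 and 2.05. The region 2.5 kb from Satb1, the gene of a chromatin organiser, was at 1.58, 1.56 and 1.78 and at 1.53, 2.46 and 1.52. At Satb1 replicate 2 was the highest library but the groups overlapped. This Satb1 region, counted among the 7, passed the count minimum through replicate 2.

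The same list held 11 lower regions (3.82%), so it did not lie on one side. Foxp1, a factor of T cell quiescence, had 5, Myb and Bach2 2 each, and S1pr1 and Tcf7 1 each. The strongest was inside Foxp1 at chr6:99274639-99275039, at 4.49, 4.97 and 5.11 without SMARTA and 4.92, 2.88 and 4.75 with it. The lower region of Tcf7, at chr11:52260902-52261302, was at 3.68, 3.84 and 4.03 and at 3.21, 2.23 and 3.50, next to higher regions of the same gene. With cyclic loess scaling the list held 8 higher and 10 lower regions.

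**Figure D5:**
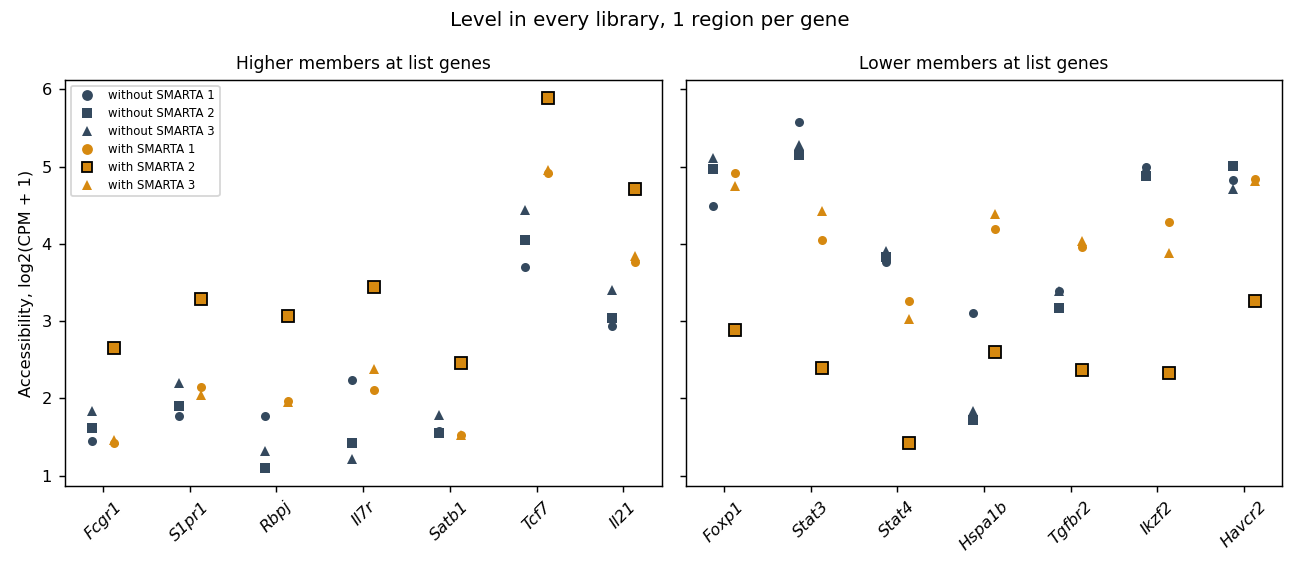
Level (log2(CPM + 1)) in every library of higher and lower regions among those with the largest gaps at list genes, 1 region per gene; dark symbols are libraries without SMARTA, orange symbols libraries with SMARTA, and the outlined square is replicate 2. At Havcr2 the outlined square lies at 3.27 and the other 5 libraries between 4.71 and 5.01, while at Hspa1b it lies between the others.

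Hspa1b, an inducible heat shock gene, was the exception among the list genes with the largest gaps. At chr17:34955691-34956091, 0.5 kb from the gene, the levels were 3.10, 1.72 and 1.84 without SMARTA and 4.19, 2.60 and 4.38 with it. Replicate 2 lay below its mates but above replicates 2 and 3 without SMARTA. In both lower regions of Hspa1b the mean without SMARTA was below replicates 1 and 3, with differences of -1.15 and -2.07. Heat shock and hypoxia genes as a list had 5 of 89 regions lower (5.62%).

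Markers of other cells were checked because a sort can carry them. The regions of macrophage, monocyte and granulocyte markers summed to 513 CPM in replicate 2, between 483 and 524 in replicates 1 and 3, and to 486 to 512 without SMARTA. Cebpb, which encodes a transcription factor of myeloid cells, made up 273 of the 513 CPM, against 262 and 312 in replicates 1 and 3. Without Cebpb the sums were 240 CPM in replicate 2, 222 and 212 in its mates and 248 to 269 in the group without SMARTA. Of the 13 markers with a region, 9 summed higher in replicate 2 than in both mates, 2 lower and 2 in between, and 5 were highest there of all 6 libraries. Itgam, the gene of CD11b, summed to 116 CPM, against 97.8 and 98.4, and Fcgr1, the gene of an IgG receptor, to 13.3, against 7.14 and 8.61. Of their 35 regions with the mean count, 1 was higher, 15.7 kb from Fcgr1 at chr3:96309446-96309846 with 1.45, 1.61 and 1.84 and with 1.43, 2.66 and 1.47. It was among the 59 higher regions that passed the count minimum through replicate 2, so nothing is read from it. Another 2 of the 35 were lower, at Cd68 and Mrc1. The region of Csf1r, the receptor of a macrophage growth factor, had 3.31 CPM in replicate 2 against 0.843 and 1.21 in its mates and 0.829 to 2.19 without SMARTA. The genes Lyz2, C1qa and C1qb had no region. Melanoma markers summed to 380 CPM in replicate 2, against 384 and 374 in its mates. The part of other cells in the higher regions at Acod1, Pparg and Atp6v0d2 was not tested.

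B cell markers summed to 112 CPM in replicate 2, against 145 and 110, dendritic cell markers to 248, against 330 and 275, and NK cell markers to 515, against 577 and 555. The NK cell list had 4 of 34 regions lower (11.8%, against 3.76% of all), all at Eomes, which activated CD8 T cells also express. CD4 and regulatory T cell markers summed to 808 CPM in replicate 2, against 933 and 943, with 5 of 63 regions lower and 1 higher. The higher one, 17.4 kb from the cytokine gene Il21 at chr3:37205206-37205606, was at 2.94, 3.04 and 3.4 and at 3.76, 4.71 and 3.85. Endothelial and fibroblast markers (20 regions) and erythroid markers (4 regions) held 0 of either sign. Of the labelled cell type, T cell receptor and CD8 lineage genes summed to 2121 CPM in replicate 2, against 2445 and 2408. Without SMARTA these genes summed to 2419 to 2539. Of the 11 genes with a region, 10 summed lower in replicate 2 than in both mates, 0 higher and 1 in between. Replicate 2 was the lowest of the 6 libraries at 7 of them. Cd3e summed to 104 CPM in replicate 2, against 109 and 115, and Cd8b1 to 271, against 312 and 300. Cd8a summed to 120 CPM, against 183 and 157, and 1 of its regions was lower. Fewer cells with an open region and less opening per cell cannot be told apart in these bulk libraries.

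The limit of 0.8 cut through a continuous range. The higher regions just inside it were at Auh, Macf1 and Cand2, each with a gap of 0.80, and those just outside were near Uggt1, Serp2 and Tpd52, at 0.799, 0.798 and 0.798. The lower regions just inside were at Col6a3, Aktip and Epdr1, at -0.801, -0.800 and -0.800. Those just outside were at Nmrk1, Zmiz1 and Maff, each at -0.80. At Maff, which encodes a small partner of AP-1-type factors, the levels were 4.06, 4.15 and 4.41 without SMARTA and 4.02, 3.22 and 4.35 with it. A further 250 regions met the limit of 0.8 but had replicates 1 and 3 apart by 0.5 or more.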

How the data were processed

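ATAC-seq was done on 6 libraries, 3 per group, with groups and replicate numbers from the sample titles. The authors deposited a table of raw counts per region for the 6 libraries and 1 peak list per library. Its columns were matched to samples through the names of the peak lists. The authors' peak lists also hold, per the file columns, a score, the fold enrichment and −log10 values of p and q for every peak; only the peak positions were used. Per the submitters' processing notes, BWA 0.7.17, SAMtools 1.8, Picard 2.18.9, MACS2 2.1.1, DiffBind 3.4.11 and GRCm38 were used, without roles or settings. Whether duplicates were removed or reads shifted for the transposase is not stated there, and duplicates left in would raise counts.

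Levels were log2(CPM + 1) over column totals, which understates differences at low counts. The rule on the 3 libraries with SMARTA chose the members. The members and the gene lists were chosen with earlier results of these data known. With against without SMARTA was tested on the deposited counts with edgeR 4.0.16 (R 4.3.3): TMM, filterByExpr, glmQLFit, glmQLFTest and Benjamini-Hochberg adjustment over all 74686 regions at 0.05. The code was tested on simulated data. Alternatives used DESeq2 1.42.0, limma 3.58.1 for cyclic loess, other scalings and limits, and fits without 1 library.

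Regions were assigned to the protein-coding gene that holds them or the nearest within 100 kb (RefSeq, GRCm38.p6). Named per direction were the 10 largest gaps, the 6 genes with most members, the 8 list genes with the largest gaps, the 3 regions just inside and just outside the limit, and the 3 promoters with the largest gaps. Some regions that this rule names are not reported here. Further genes and regions given with values were chosen after their values were seen: Il10, Rora, Cblb, Cd6, St8sia1, the additional regions of genes already named, and the stretches with AP-1 letters. Motif matches counted both strands. No genome sequence was used, so the sequence of regions outside promoters was not analysed here. Fewer than 4 libraries per group left no group for a test of outlying samples.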

Additional observations from a re-analysis of the deposited data

How the results depend on the processing

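The count of higher regions was 237 by the rule, 367 with a pseudocount of 0.25, 422 with a minimum mean count of 25, 97 with a minimum of 100 and 93 with a difference of 1.0. The lower regions fell from 1883 to 938 with a difference of 1.0. TMM-scaled library sizes gave 212 higher and 2066 lower regions, DESeq2 size factors 203 and 2107, cyclic loess 296 and 1381, and a limit of 0.3 between replicates 1 and 3 gave 192 and 1478. The median of the group without SMARTA minus replicates 1 and 3 moved from -0.03 to -0.10 with cyclic loess in the higher regions, and from 0.112 to 0.065 with TMM in the lower ones. When 1 library without SMARTA was left out, it ran from -0.07 to 0.01 in the higher regions, so its sign was not settled, and from 0.096 to 0.122 in the lower ones. The median difference of replicate 2 over all regions moved by under 0.1 under each scaling. No gap of a named region changed sign under TMM, DESeq2 size factors, cyclic loess or a pseudocount of 0.25. The named regions had been picked with gaps beyond or next to the limit of the rule, far larger than these median shifts. A pseudocount cannot reverse the order of 2 levels. The kept signs thus follow from the choice of regions, and nothing is read from them.

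Leaving out 1 library at a time moved the edgeR calls most. Over all regions 6074 to 12669 passed, against 11264 with all 6 libraries, with 1224 to 4259 opened (3497 with all) and 4403 to 8410 closed (7767 with all). Among higher regions 4 to 53 passed (38 with all), with 4 to 53 opened and 0 to 15 closed. Among lower regions 135 to 613 passed (300 with all), with 1 to 228 opened and 131 to 385 closed. The lowest counts came without replicate 2 or 3 of the group without SMARTA or without replicate 3 with SMARTA; 613 came without replicate 2 with SMARTA. A fit that leaves out 1 library keeps 2 against 3, and that loss of samples is part of its construction. DESeq2 called 11787 regions, among them 55 higher and 436 lower ones.

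Same-numbered libraries deviated together with correlations of -0.020, -0.078 and 0.076, and the other pairs with -0.107 to 0.086. In groups of 3 libraries these values cannot tell whether a number marks a shared batch, and the labels do not say. With the replicate number as a block, edgeR called 10475 regions (3215 opened, 7260 closed), among them 41 opened and 0 closed higher regions and 23 opened and 311 closed lower ones. Replicate 2 held under 50 counts in 779 of the lower regions, which were chosen for low values there, and counting error is wider at such counts.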

Other observations

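Several further genes held clusters of lower regions, and all were chosen after their values were seen. Il10, the gene of an immunosuppressive cytokine, had 5 lower regions of 11, and 3 with cyclic loess scaling. Inside Il10, at chr1:131022569-131022969, the levels were 5.80, 5.42 and 5.10 in replicates 1, 2 and 3 without SMARTA and 4.79, 3.34 and 4.81 with it. At chr1:131003329-131003729, outside the gene, they were 4.37, 4.16 and 3.44 and then 2.30, 1.10 and 1.94. In 4 of the 5 the mean without SMARTA was above replicates 1 and 3 by 0.5 or more, so replicate 2 lay at the far end of an order that separated the groups.

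Rora, which encodes a nuclear receptor of innate lymphoid and helper cells, had 5 lower regions of 24, all inside the gene, and showed the opposite order. The mean without SMARTA was below replicates 1 and 3 in all 5. At chr9:69300265-69300665 the levels were 4.33, 4.18 and 3.71 and then 4.65, 2.92 and 4.65. Cblb, whose ubiquitin ligase restrains T cell activation, had 5 of 38, and at chr16:52107834-52108234 the levels were 4.06, 4.43 and 4.19 and then 3.60, 1.96 and 3.28. Cd6, which encodes a T cell surface receptor, had 5 of 16. At chr19:10815817-10816217 it was at 5.03, 5.59 and 5.54 and then at 5.15, 4.08 and 5.34, with replicate 2 alone apart. With cyclic loess scaling the counts were 5 at Rora, 3 at Cblb and 3 at Cd6.

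St8sia1, which encodes the synthase of ganglioside GD3, had 5 of 29. At chr6:142888982-142889382 it was at 1.47, 1.31 and 1.43 without SMARTA and at 2.45, 1.61 and 2.46 with it, which is 1 of the 12 lower regions where all 3 libraries without SMARTA lay below replicate 2.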
